A study of Mus musculus with 10 samples.

Results

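Interferon signalling was examined through 9 genes in Hepa1-6 tumours: the ligand Ifng, the receptor chains Ifngr1, Ifngr2 and Ifnar1, the kinase Jak2, and the transcription factors Stat2, Irf1, Irf7 and Irf9. The genes were chosen by symbol, and each of the 9 had 1 line in a table of 54986 gene identifiers. GSK343 blocks EZH2, the enzyme that methylates lysine 27 of histone H3, and the series compared 5 GSK343 tumours with 5 vehicle tumours of C57/BL6 mice. Hepa1-6 is a mouse hepatoma line, and its cells were grown under the skin of that strain for 4 weeks in both groups, so each sample holds RNA of tumour and host cells. Tumours with titles in G were taken as GSK343 and, by elimination, those with titles in C as vehicle. The labels also name antibody injections, either control or anti-asialo-GM1, the reagent used to deplete natural killer cells. They do not say which tumours received which, so a difference of antibody and one of GSK343 cannot be told apart. Neither the dose of GSK343 nor the age of the mice is given.

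Interferon-gamma, the product of Ifng, is made mainly by activated T cells and natural killer cells. It binds a receptor of IFNGR1 and IFNGR2 chains, whose kinases JAK1 and JAK2 start the signal that acts on gamma-activated sites (GAS) in genes such as Irf1. Type I interferons bind IFNAR1 and IFNAR2 and act through JAK1 and TYK2 to form ISGF3, a complex that includes STAT2 and IRF9 and binds interferon-stimulated response elements (ISRE). IRF7, itself induced by ISGF3, drives transcription of type I interferon genes in infected and plasmacytoid dendritic cells.

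The promoters of Irf1 and Stat2 are shown because each holds a match to the binding motif of the pathway's factors. The 2 genes varied differently over the tumours, and a link of motif and variation was not tested. Each window runs from 250 bases before to 50 bases after the start of a RefSeq transcript (build GRCm38.p6, which is mm10), and capitals mark the match. The Irf1 window is chr11:53769764-53770063 on the plus strand, and the Stat2 window is chr10:128270248-128270547 on the plus strand.
Irf1: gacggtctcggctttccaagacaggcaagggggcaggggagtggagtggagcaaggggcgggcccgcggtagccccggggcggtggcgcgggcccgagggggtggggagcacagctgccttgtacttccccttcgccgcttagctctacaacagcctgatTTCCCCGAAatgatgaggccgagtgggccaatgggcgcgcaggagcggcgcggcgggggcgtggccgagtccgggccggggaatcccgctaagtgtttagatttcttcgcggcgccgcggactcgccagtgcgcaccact
Stat2: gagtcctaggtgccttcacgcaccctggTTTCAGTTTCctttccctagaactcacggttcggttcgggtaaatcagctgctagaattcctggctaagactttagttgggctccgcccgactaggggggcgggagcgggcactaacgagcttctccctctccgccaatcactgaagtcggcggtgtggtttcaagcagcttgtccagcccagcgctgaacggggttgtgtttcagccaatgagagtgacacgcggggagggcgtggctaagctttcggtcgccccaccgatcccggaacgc
The capitals in Irf1 match the GAS letters TTCNNNGAA at chr11:53769924-53769932, beginning 90 bases before the start. The capitals in Stat2 match the ISRE core, GAAA followed by any 2 bases and GAAA, read on the minus strand, at chr10:128270276-128270285, beginning 222 bases before the start. The table held 11 windows for the 9 genes, with 2 each for Irf1 and Irf9. Both strands were searched, the GAS letters read the same on either, and no 2 matches overlapped. The GAS letters stood in 3 windows, the first of Irf1 and those of Ifng (TTCAGAGAA, chr10:118440797-118440805) and Ifnar1 (TTCACGGAA, chr16:91485210-91485218). The ISRE core stood in that of Stat2 alone. Of 32851 promoters of the same length, 8.30% held the GAS letters and 3.44% the ISRE core. The windows of Irf7, Irf9, Ifngr1, Ifngr2 and Jak2 held neither set of letters.

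Expression is given as FPKM, which scales fragments by exon length and library size, so levels can be set side by side between genes. The hepatoma label was checked by 12 liver tumour markers, which were all expressed highly enough to test. Their summed level was 3964 to 5400 FPKM in GSK343 tumours and 5016 to 6466 FPKM in vehicle tumours, with a median log2 fold change of -0.28. By limma 0 of the 12 passed, and 4 were lower at an unadjusted p under 0.05, Apoa1, Apoa2, Ttr and Hnf4a, of which Apoa2 separated the groups. Over all lines 6.86% were lower by that rule, and 1.2% separated the groups with GSK343 lower. Afp ranged from 1465 to 2154 FPKM in GSK343 tumours and from 1954 to 2424 FPKM in vehicle tumours. Alb ranged from 2380 to 3061 FPKM and from 2878 to 3658 FPKM, in the same order. Alb and Afp made up most of the summed level. Other markers were low, such as Serpina1a with 0.287 to 2.92 FPKM in GSK343 and 0.708 to 4.38 FPKM in vehicle tumours. The table holds no read counts. Depth was inferred only, as 38.5 to 50.8 M reads per tumour, on the assumption that the smallest step between low values stands for 1 read. GSK343 replicates 3 and 5 stood apart with 7.17% and 7.11% of the FPKM sum in mitochondrial transcripts, against 2.63% to 3.82% in the other GSK343 tumours and 2.78% to 5.05% in vehicle tumours.

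None of the 9 genes passed the test between GSK343 and vehicle tumours (limma, adjusted p under 0.05), in a comparison that called 12 of 14496 lines, or 0.0828%, with 0.069% higher and 0.0138% lower in GSK343 tumours. The ligand Ifng and the ISGF3 subunits Stat2 and Irf9 had the largest fold changes of log2(FPKM + 1), all with higher means in GSK343 tumours. By the ratio of mean FPKM, Irf7 (1.72) stood above Irf9 (1.59). The receptor chains and Irf1 differed by less than their spread between tumours. At an unadjusted p under 0.05 in limma 4 of the 9 were higher, Ifng, Jak2, Stat2 and Irf9, and 0 lower. Over all lines 10.7% were higher and 6.86% lower by that rule. The log2 fold change was above 0 for 6 of the 9 and for 47.6% of all lines, and its median was 0.21 for the 9 and -0.01 for all lines. The groups overlapped for each of the 9 genes, while they did not for 1.42% of lines higher and 1.2% of lines lower in GSK343 tumours. Without GSK343 replicate 2 they did not overlap for 2 of the 9, Stat2 and Irf9. In that refit they did not overlap for 365 lines higher and 379 lower of 14478. The count of 4 was 1 without GSK343 replicates 3 and 5 and 2 without GSK343 replicate 5. Over all lines 691 of 14360 and 1170 of 14411 were then higher at an unadjusted p under 0.05, in that order.

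**Figure D1:**
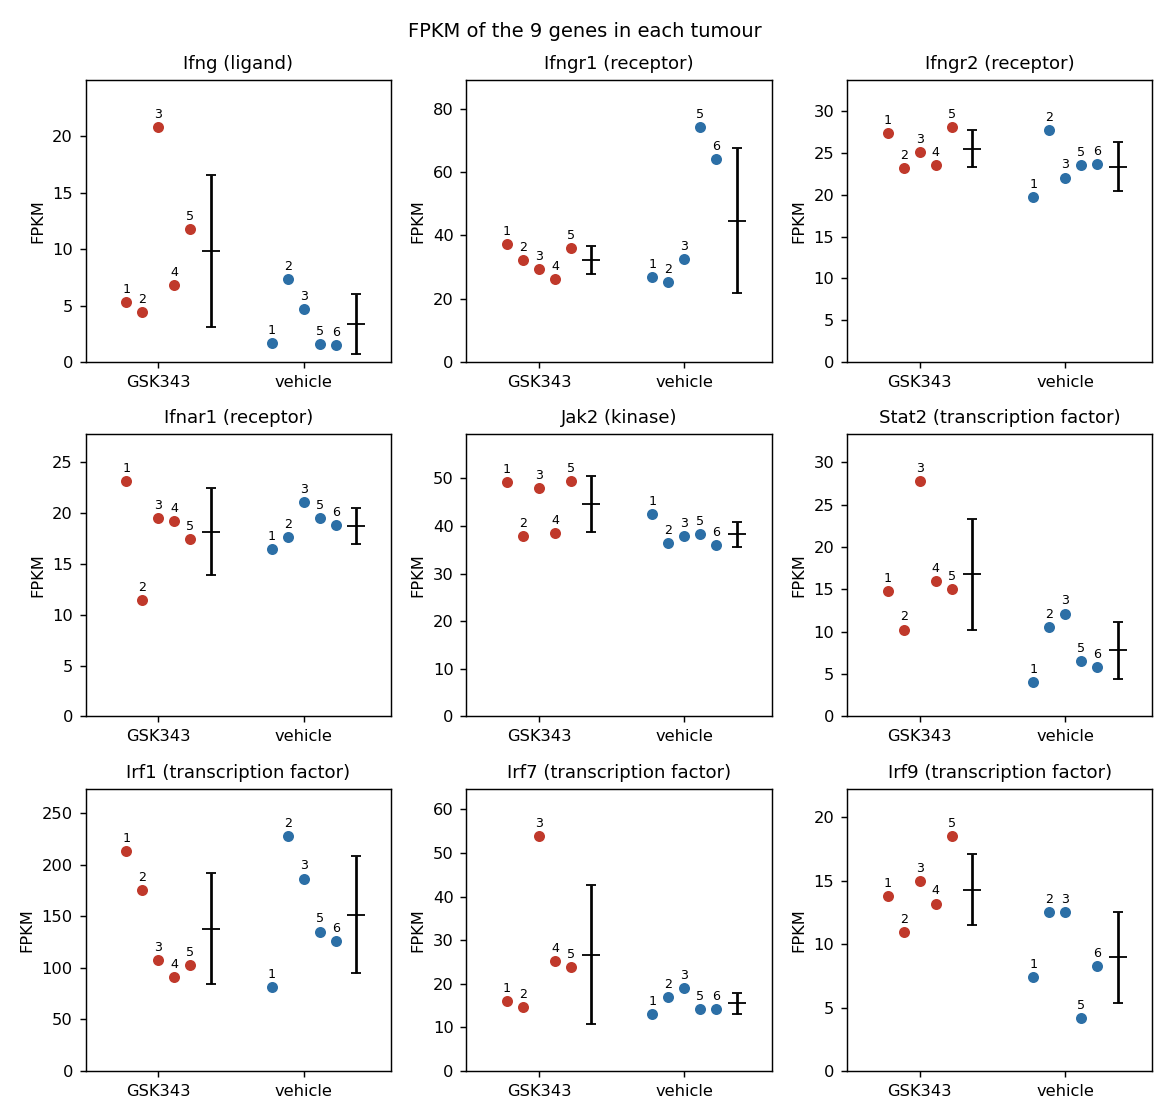
FPKM of each of the 9 genes (vertical axis, from 0) in 5 GSK343 tumours (left, red) and 5 vehicle tumours (right, blue); numbers are replicates and the black mark is the mean with its SD. Ifng, Stat2 and Irf7 peaked in GSK343 replicate 3, at 20.8, 27.8 and 54.0 FPKM, and Ifngr1 in vehicle replicates 5 and 6, at 74.3 and 64.1 FPKM.

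Ifng (ENSMUSG00000055170.4, chr10:118441046-118445892, plus strand, mm10) was the least abundant of the 9. It measured 5.33, 4.44, 20.8, 6.78 and 11.7 FPKM in GSK343 replicates 1 to 5, against 1.68, 7.38, 4.70, 1.57 and 1.49 FPKM in vehicle replicates 1, 2, 3, 5 and 6. The 3 lowest tumours were vehicle tumours, but vehicle replicate 2 lay above 3 of the 5 GSK343 tumours. The means were 9.83 ± 6.77 FPKM in GSK343 and 3.36 ± 2.62 FPKM in vehicle tumours (SD, n = 5 each). The log2 fold change was 1.3 (SE 0.45, 95% interval 0.31 to 2.30) with a limma adjusted p of 0.210. An exact permutation test, two-sided and unadjusted, gave p = 0.0556, where the smallest that 5 against 5 tumours allow is 0.00794. Leaving out GSK343 replicate 2 gave p = 0.0476 and leaving out vehicle replicate 2 gave p = 0.0238 in that exact test, while leaving out any other single tumour gave 0.0635 to 0.111. Without GSK343 replicates 3 and 5 it was 0.214, with a log2 fold change of 0.75. Fewer cells of a type and less RNA per cell cannot be told apart in such bulk samples.

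Ifngr1 (ENSMUSG00000020009.13, chr10:19591949-19610229, plus strand), the ligand-binding chain of the interferon-gamma receptor, measured 37.1, 32.2, 29.4, 26.3 and 36 FPKM in GSK343 replicates 1 to 5. In vehicle replicates 1, 2, 3, 5 and 6 it measured 26.7, 25.3, 32.5, 74.3 and 64.1 FPKM. Vehicle replicates 5 and 6 lay far above the other 8 tumours, and the other 3 vehicle tumours lay within or below the GSK343 range. The means were 32.2 ± 4.52 FPKM in GSK343 and 44.6 ± 22.9 FPKM in vehicle tumours (SD, n = 5 each), with a log2 fold change of -0.32 (SE 0.291, limma adjusted p = 0.581). The log2 fold change was -0.11 without vehicle replicate 5 and -0.16 without vehicle replicate 6.

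Ifngr2 (ENSMUSG00000022965.8, chr16:91547072-91565623, plus strand), the signalling chain of the same receptor, was steadier. It measured 27.4, 23.2, 25.1, 23.6 and 28.1 FPKM in GSK343 replicates 1 to 5 and 19.7, 27.8, 22.1, 23.5 and 23.7 FPKM in vehicle replicates 1, 2, 3, 5 and 6. Its log2 fold change was 0.13 (95% interval -0.08 to 0.34, limma adjusted p = 0.507). In 9 of 10 tumours Ifngr1 stood above Ifngr2. The exception was vehicle replicate 2.

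Ifnar1 (ENSMUSG00000022967.13, chr16:91485238-91507441, plus strand), a chain of the type I interferon receptor, measured 23.1, 11.5, 19.6, 19.2 and 17.5 FPKM in GSK343 replicates 1 to 5 and 16.4, 17.6, 21.1, 19.5 and 18.8 FPKM in vehicle replicates 1, 2, 3, 5 and 6. GSK343 replicates 1 and 2 were the highest and the lowest of the 10 tumours. The log2 fold change was -0.07 (95% interval -0.41 to 0.28, limma adjusted p = 0.847), and it was 0.079 without GSK343 replicate 2. The groups also overlapped for Ifnar2, the other chain of that receptor, with 38.8 to 53.7 FPKM in GSK343 and 41.1 to 73.7 FPKM in vehicle tumours (log2 fold change -0.22, limma adjusted p = 0.496).

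Jak2 (ENSMUSG00000024789.12, chr19:29251828-29313080, plus strand), the kinase bound to IFNGR2, measured 49.2, 38.0, 48.0, 38.6 and 49.4 FPKM in GSK343 replicates 1 to 5, against 42.5, 36.5, 37.9, 38.3 and 35.9 FPKM in vehicle replicates 1, 2, 3, 5 and 6. GSK343 replicates 1, 3 and 5 lay above each vehicle tumour, and GSK343 replicates 2 and 4 lay in the vehicle range. The means were 44.6 ± 5.84 FPKM in GSK343 and 38.2 ± 2.60 FPKM in vehicle tumours (SD, n = 5 each; log2 fold change 0.21, SE 0.0944, limma adjusted p = 0.282). Its exact permutation p was 0.0635. Without GSK343 replicates 3 and 5 it was 0.232, with a log2 fold change of 0.12. Of the partner kinases, Jak1 had a log2 fold change of 0.36 (limma adjusted p = 0.221) and Tyk2, at 6.03 to 7.31 FPKM in GSK343 and 3.99 to 6.04 FPKM in vehicle tumours, one of 0.38 (limma adjusted p = 0.192).

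Stat2 (ENSMUSG00000040033.16, chr10:128270559-128292849, plus strand), the STAT specific to ISGF3, had the smallest p of the 9. It measured 14.8, 10.3, 27.8, 16.0 and 15.04 FPKM in GSK343 replicates 1 to 5, against 4.10, 10.5, 12.2, 6.58 and 5.80 FPKM in vehicle replicates 1, 2, 3, 5 and 6. GSK343 replicates 1, 3, 4 and 5 lay above each vehicle tumour, and GSK343 replicate 2 lay below vehicle replicates 2 and 3. The means were 16.8 ± 6.54 FPKM in GSK343 and 7.83 ± 3.37 FPKM in vehicle tumours (SD, n = 5 each). The log2 fold change was 1.02 (SE 0.293, 95% interval 0.38 to 1.67, limma adjusted p = 0.191), and the exact permutation p was 0.0238, unadjusted. That p was 0.0714 without GSK343 replicates 3 and 5, with 3 against 5 tumours left.

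Irf9 (ENSMUSG00000002325.15, chr14:55603571-55610030, plus strand), the DNA-binding subunit of ISGF3, measured 13.8, 10.9, 14.98, 13.2 and 18.6 FPKM in GSK343 replicates 1 to 5 and 7.4, 12.5, 12.5, 4.13 and 8.29 FPKM in vehicle replicates 1, 2, 3, 5 and 6. Again vehicle replicates 2 and 3 lay among the GSK343 tumours, above GSK343 replicate 2. The means were 14.3 ± 2.80 FPKM in GSK343 and 8.97 ± 3.59 FPKM in vehicle tumours (SD, n = 5 each; log2 fold change 0.68, SE 0.252, limma adjusted p = 0.221). Its unadjusted exact permutation p was 0.0397. It was 0.0635, 0.0794, 0.0635 and 0.0873 without GSK343 replicates 1, 3, 4 and 5, each left out in turn. It was 0.0794 without vehicle replicate 5, with a log2 fold change of 0.47, and 0.196 without GSK343 replicates 3 and 5, with one of 0.53.

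Irf7 (ENSMUSG00000025498.15, chr7:141262706-141266481, minus strand), the inducer of type I interferon genes, measured 16.0, 14.6, 54.0, 25.1 and 23.8 FPKM in GSK343 replicates 1 to 5, against 13.1, 17.1, 18.99, 14.2 and 14.2 FPKM in vehicle replicates 1, 2, 3, 5 and 6. GSK343 replicate 3 stood far above the other 9 tumours, and GSK343 replicates 1 and 2 lay within the vehicle range. The means were 26.7 ± 15.9 FPKM in GSK343 and 15.5 ± 2.44 FPKM in vehicle tumours (SD, n = 5 each; log2 fold change 0.60, SE 0.295, limma adjusted p = 0.319). Without GSK343 replicate 3 the log2 fold change was 0.32, and without GSK343 replicates 3 and 5 it was 0.22 (exact permutation p = 0.357).

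Irf1 (ENSMUSG00000018899.16, chr11:53770014-53778374, plus strand), an early target of interferon-gamma, was the most abundant of the 9 and did not follow the other factors. It measured 214, 176, 107, 91.3 and 102 FPKM in GSK343 replicates 1 to 5, against 81.4, 228, 187, 135 and 126 FPKM in vehicle replicates 1, 2, 3, 5 and 6. The highest and the lowest tumour were both vehicle tumours, and GSK343 replicates 3 and 5, with the most Ifng, were among the 4 lowest for Irf1. The means were 138 ± 53.8 FPKM in GSK343 and 152 ± 56.9 FPKM in vehicle tumours (SD, n = 5 each; log2 fold change -0.13, 95% interval -0.81 to 0.55, limma adjusted p = 0.850). The sign turned without vehicle replicate 2, where the log2 fold change was 0.038, and without GSK343 replicates 3 and 5, where it was 0.079. Compared within each tumour, log2(FPKM + 1) of Stat2 minus that of Irf1 averaged -2.96 in GSK343 and -4.11 in vehicle tumours, a difference of 1.15 (exact permutation p = 0.0159, adjusted p = 0.127 over 8 genes set against Irf1). This comparison was chosen after the values of Irf1 were seen, and none of the 8 passed after adjustment.

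By mean level over the 10 tumours the order was Irf1, Jak2, Ifngr1, Ifngr2, Irf7, Ifnar1, Stat2, Irf9 and Ifng. Irf1 stood above Jak2 in 10 of 10 tumours and Irf9 above Ifng in 9. Irf7 and Ifnar1 were not ordered beyond their spread, with Irf7 above in 4 of 10 tumours, nor were Stat2 and Irf9, with Stat2 above in 4. Some lines share bases with other genes. Irf1 holds the antisense gene Gm17334 (0.326 to 1.84 FPKM), Ifng the line RP23-353P23.2 (at most 0.317 FPKM), Irf9 overlaps Rnf31 by 123 bases and Irf7 overlaps Phrf1 by 45 bases. The strand setting of the counting is not given, so reads of these overlaps cannot be told apart.

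**Figure D2:**
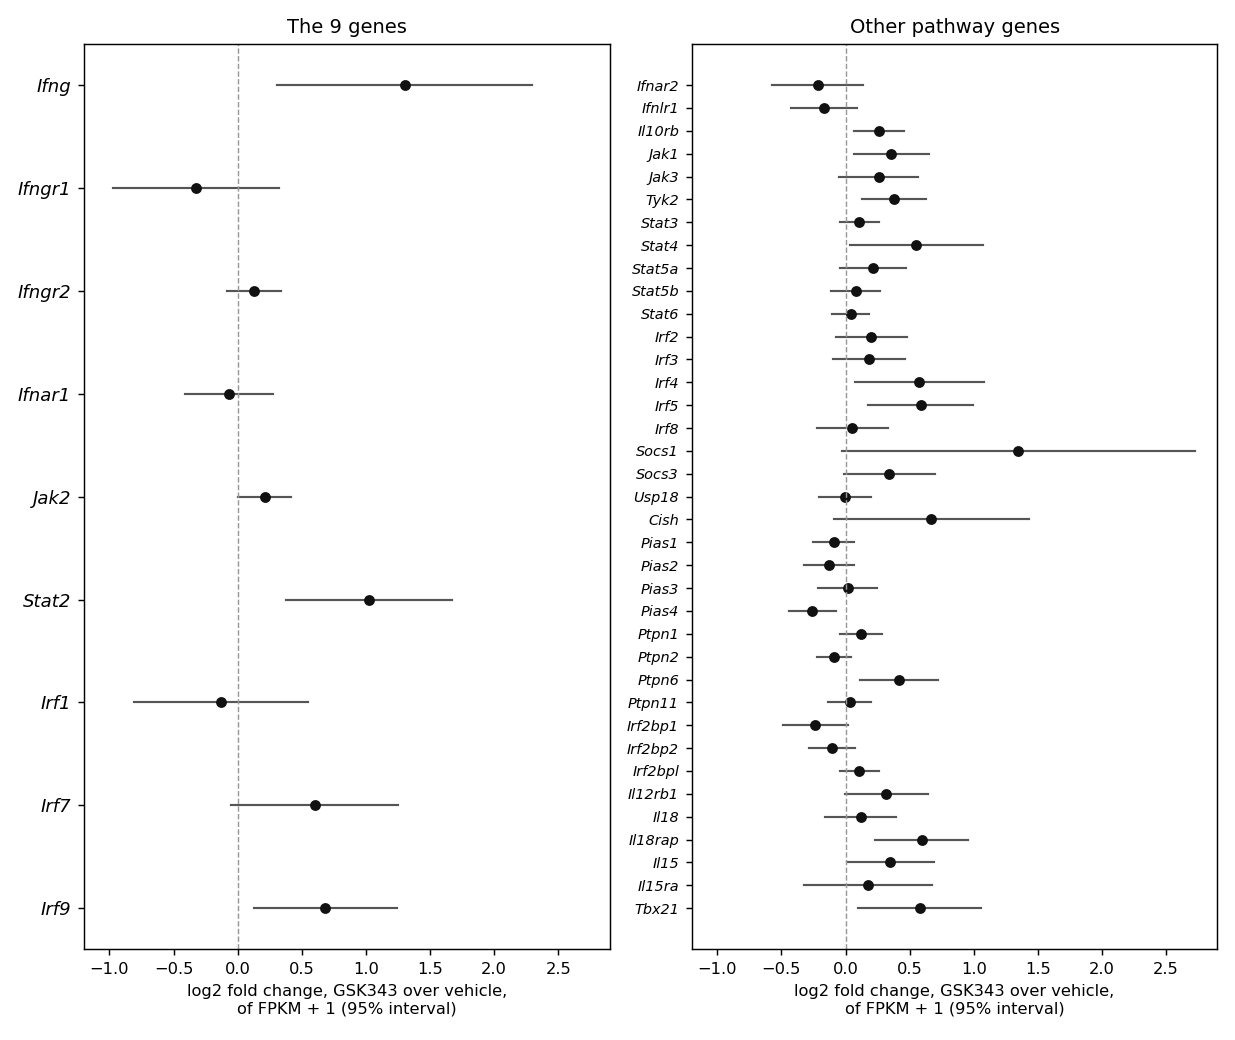
Log2 fold change of FPKM + 1, GSK343 over vehicle (horizontal axis), with its 95% interval from limma, for the 9 genes (left) and 37 of the other pathway genes tested (right). Stat2 lay at 1.02 and Ifng at 1.3, while the intervals of Ifngr1, Ifngr2, Ifnar1, Irf1 and Irf7 included 0.

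Across the 10 tumours, the levels of Stat2, Irf7 and Irf9 varied with that of Ifng, and the level of Irf1 did not. Whether they respond to the ligand was not tested. On log2(FPKM + 1), Pearson's r with Ifng was 0.93 for Stat2 (permutation p = 0.000280, adjusted 0.00112 over 8 relations), with a Spearman rho of 0.87 (adjusted permutation p = 0.00587). For Irf7 r was 0.87 (adjusted permutation p = 0.00112) and rho 0.87 (adjusted permutation p = 0.00587). For Irf9 r was 0.83 (adjusted permutation p = 0.00691) and rho 0.90 (adjusted permutation p = 0.00587). For Irf1 r was 0.01 (permutation p = 0.987) and rho 0.01.

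The relations of the 3 genes were present within the groups. With each group's mean subtracted, r was 0.86 for Stat2 (exact permutation p within groups = 0.00562), 0.81 for Irf7 (exact permutation p = 0.00292) and 0.71 for Irf9 (exact permutation p = 0.0281), against 0.13 for Irf1 (exact permutation p = 0.739). Without the 2 tumours farthest from the median of Ifng, GSK343 replicate 3 and vehicle replicate 6, r was 0.86 for Stat2, 0.80 for Irf7 and 0.92 for Irf9. Vehicle replicates 1, 5 and 6 lay close together at low Ifng. Over the other 7 tumours r was 0.83 for Stat2 and 0.90 for Irf7 (exact permutation p = 0.0272 and 0.0125), 0.69 for Irf9 (exact permutation p = 0.0940) and -0.60 for Irf1 (exact permutation p = 0.156). Of the remaining relations, Ifngr1 had an r of -0.56, Ifngr2 0.59, Jak2 0.56 and Ifnar1 0.09. The adjusted permutation p was 0.129 for each of the first 3 and 0.930 for Ifnar1.

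**Figure D3:**
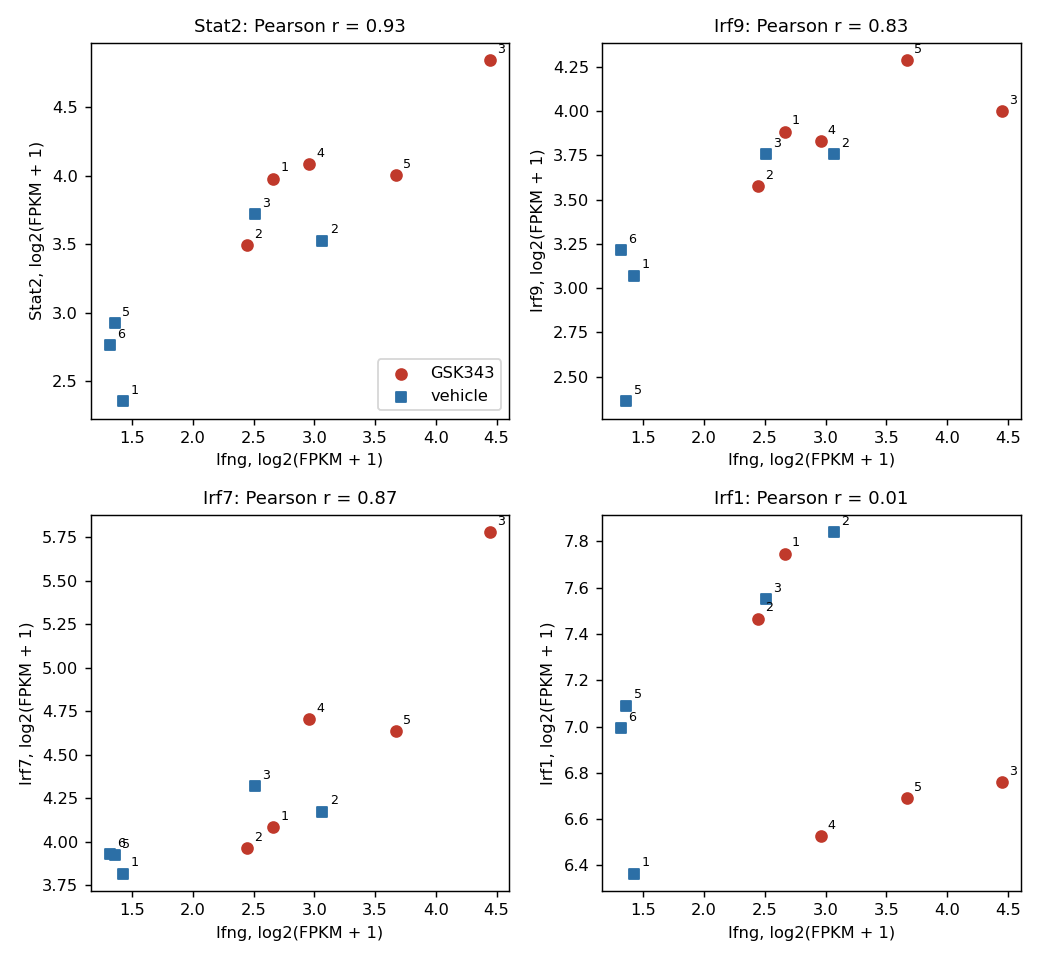
Log2(FPKM + 1) of Ifng (horizontal axis) against that of Stat2, Irf9, Irf7 and Irf1 (vertical axes), 1 point per tumour with its replicate number; red circles are GSK343 and blue squares vehicle. Stat2, Irf9 and Irf7 climb with Ifng (r = 0.93, 0.83 and 0.87), while GSK343 replicates 3, 4 and 5 lie above the mean of Ifng and below that of Irf1.

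Markers of leukocytes and of other cell types were compared between the groups. Of these lists, only the pan-leukocyte markers were tested for a relation with the interferon signalling genes. All 10 pan-leukocyte markers were expressed highly enough to test and none was at 0 in every tumour. Their summed level was 572 to 993 FPKM in GSK343 and 269 to 817 FPKM in vehicle tumours, and vehicle replicate 2 held the highest vehicle sum. Of the 10, 9 were higher in GSK343 tumours at an unadjusted p under 0.05 in limma (median log2 fold change 0.79). Over all lines 10.7% were higher by that rule. The 12 T cell markers summed to 103 to 271 FPKM in GSK343 and 56.2 to 187 FPKM in vehicle tumours, and 3 were higher by that rule (median log2 fold change 0.65). The 10 macrophage markers summed to 829 to 1337 FPKM in GSK343 and 358 to 1456 FPKM in vehicle tumours, and 8 were higher by that rule (median log2 fold change 0.92). The 10 natural killer cell markers summed to 26.5 to 78.9 FPKM in GSK343 and 15.9 to 52.1 FPKM in vehicle tumours, and 6 could be tested. Klrd1, Klrk1, Gzma and Prf1 made up most of that sum. How much of it came from natural killer cells was not tested. Of the 6, 2 were higher by the unadjusted rule, Klrk1 and Klre1, and Klra4 had a log2 fold change of -0.18. Klrk1 measured 4.38 to 11.2 FPKM in GSK343 and 1.67 to 4.11 FPKM in vehicle tumours (limma adjusted p = 0.189). Ncr1, a receptor of natural killer cells, was too low to test, at 0.290 to 1.27 FPKM in GSK343 and 0.124 to 0.503 FPKM in vehicle tumours.

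The 8 skeletal muscle markers summed to 71.1 to 449 FPKM in GSK343 and 14.1 to 116 FPKM in vehicle tumours, and 7 were higher at an unadjusted p under 0.05 in limma (median log2 fold change 1.66). Their mean log2(FPKM + 1) was highest in GSK343 replicate 3, at 5.63, the tumour with the most Ifng, Stat2 and Irf7. The 9 fibroblast markers summed to 1456 to 2239 FPKM in GSK343 and 1521 to 1909 FPKM in vehicle tumours, and 6 were higher by that rule. Over all lines 10.7% were. The largest part of the fibroblast sum was Dcn, which was not among the 6. Dcn measured 910 to 1203 FPKM in GSK343 and 996 to 1291 FPKM in vehicle tumours (log2 fold change -0.11). By limma 0 markers of these lists passed over all lines. The 7 keratinocyte markers summed to 1.81 to 23.7 FPKM in GSK343 and 2.79 to 121 FPKM in vehicle tumours. Of them 4 could be tested, with a median log2 fold change of -1.16, and 0 were lower at an unadjusted p under 0.05 in limma. Their mean log2(FPKM + 1) was highest in vehicle replicates 3 and 1, at 3.22 and 1.98. The part of muscle, fibroblast, keratinocyte and hepatoma content in the values of the 9 genes was not tested.

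The pan-leukocyte score, the mean log2(FPKM + 1) of its markers, was related to Ifng with an r of 0.94 (rho 0.87) and to Irf9 with an r of 0.85 (rho 0.90). It was related to Stat2 with an r of 0.89 (rho 0.79) and to Irf1 with an r of 0.24 (rho 0.22). Its r was 0.76 with Ifngr2 (rho 0.77) and 0.68 with Irf7 (rho 0.72), with an adjusted permutation p of 0.0226 for Ifngr2 and 0.0336 for Irf7, and of 0.0288 and 0.0421 for rho. For the first 4 genes the permutation p adjusted over 9 relations was 0.00108 for Ifng, 0.00213 for Irf9, 0.00213 for Stat2 and 0.567 for Irf1. The adjusted p of rho was 0.0103, 0.00765, 0.0263 and 0.692 in the same order. Without vehicle replicates 1 and 6, the tumours farthest from the median score, r was 0.90 for Ifng, 0.88 for Irf9, 0.78 for Stat2, 0.70 for Ifngr2 (exact permutation p = 0.0504) and 0.60 for Irf7 (exact permutation p = 0.120). With the score as a covariate the log2 fold change was 0.02 for Ifng, 0.30 for Stat2, 0.13 for Irf7, 0.10 for Irf9 and -0.59 for Irf1, and no gene of the 9 had an unadjusted p under 0.05 in limma. Over all lines 453 of 14496 were then higher and 210 lower by that rule. The score itself differed between the groups, with 5.25 to 6.14 in GSK343 and 4.25 to 5.65 in vehicle tumours. A difference of group and one of score therefore cannot be told apart in that fit. The relations of Stat2, Irf7 and Irf9 with Ifng were not recomputed with the score held. A relation with Ifng and one with leukocyte content therefore cannot be told apart.

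**Figure D4:**
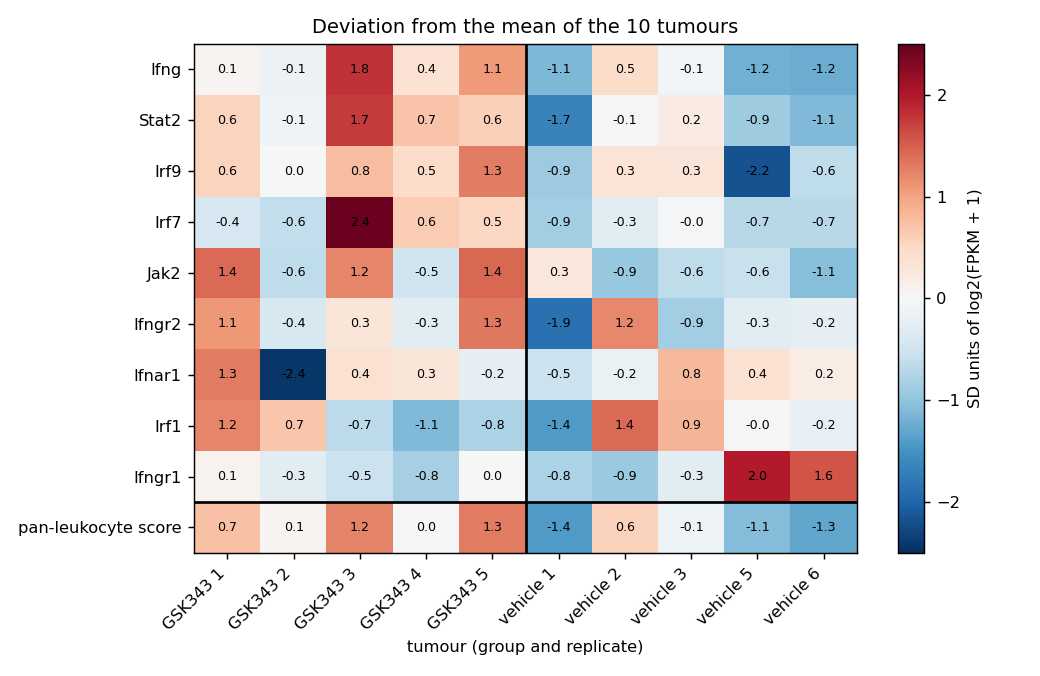
Deviation of each gene from its mean over the 10 tumours, in SD units of log2(FPKM + 1) (colour and printed value); columns are GSK343 tumours left of the line and vehicle tumours right of it, and the bottom row adds the pan-leukocyte score. GSK343 replicate 3 is 1.8 SD above the mean for Ifng and 0.7 SD below it for Irf1.

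Of the other interferon genes in the list, none was expressed highly enough to test. All 20 type I and type III interferon genes, Ifnb1 and the Ifna family among them, lay under 1 FPKM in each of the 10 tumours. Of these, 10 were listed at 0 in each tumour. Their summed level was 0.102 to 0.274 FPKM in GSK343 and 0.0361 to 0.201 FPKM in vehicle tumours, so Ifng exceeded the whole list in each tumour. Single Ifna genes are near copies of each other, and reads may be shared among them.

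The receptors, kinases, factors, inhibitors and inducers of the pathway came next. Of 64 other pathway genes 39 were expressed highly enough to test, and 0 passed over all lines in either direction. At an unadjusted p under 0.05 in limma 11 were higher and 2 lower, and the median log2 fold change was 0.17. Over all lines 10.7% were higher and 6.86% lower by that rule. The 11 became 1 without GSK343 replicates 3 and 5, 7 without GSK343 replicate 3, 5 or vehicle replicate 1, and 0 with the pan-leukocyte covariate. Over all lines the 1552 of 14496 higher became 691 of 14360 without GSK343 replicates 3 and 5 and 453 of 14496 with the covariate. Stat4, the STAT of interleukin-12 signalling, was among the 11 (2.15 to 5.42 FPKM in GSK343 and 1.14 to 3.36 FPKM in vehicle tumours, limma adjusted p = 0.261). So were 2 IRFs. Irf5, a factor of myeloid and B cells, measured 20.5 to 27.9 FPKM in GSK343 and 11.8 to 24.6 FPKM in vehicle tumours (log2 fold change 0.58, limma adjusted p = 0.201). Irf4, a lymphocyte factor, measured 0.675 to 2.36 FPKM in GSK343 and 0.15 to 1.41 FPKM in vehicle tumours (limma adjusted p = 0.239).

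Among the 3 other receptor chains, Il10rb, shared by the interleukin-10 and type III interferon receptors, had a log2 fold change of 0.26 (limma adjusted p = 0.208). Ifnlr1, the specific chain of the type III receptor, had one of -0.17 (limma adjusted p = 0.476). Of 15 inhibitors 1 was higher and 1 lower at an unadjusted p under 0.05 in limma, where 10.7% and 6.86% of all lines were. Ptpn6, the leukocyte phosphatase SHP-1, measured 36.5 to 44.6 FPKM in GSK343 and 22.6 to 38.0 FPKM in vehicle tumours (limma adjusted p = 0.203). Pias4, a SUMO ligase that restrains STAT signalling, measured 10.7 to 14.2 FPKM in GSK343 and 14.1 to 16.1 FPKM in vehicle tumours (limma adjusted p = 0.202). Of 11 genes that induce Ifng 6 could be tested and 3 were higher by that rule. Il18rap, a chain of the interleukin-18 receptor, had a log2 fold change of 0.59 (limma adjusted p = 0.191), and Tbx21, the T-bet factor of type 1 lymphocytes, one of 0.58 (limma adjusted p = 0.222). The third was Il15, a cytokine of natural killer and memory T cells, with one of 0.35 (limma adjusted p = 0.275), named after its values were seen.

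Target genes downstream of these factors were chosen with earlier results of the same tumours known. Of 18 interferon-gamma targets 17, and of 18 ISGF3 targets 14, were higher at an unadjusted p under 0.05 in limma, and 0 of the 36 passed over all lines. Over all lines 1552 of 14496, or 10.7%, were higher by that rule. The 31 higher targets became 5 with the pan-leukocyte covariate and 19 without GSK343 replicates 3 and 5. Over all lines the count was then 453 of 14496 and 691 of 14360, in that order. The median log2 fold change was 0.80 and 0.62 for the 2 lists. Ciita, the class II transactivator, measured 6.05 to 13.5 FPKM in GSK343 and 3.33 to 6.33 FPKM in vehicle tumours (limma adjusted p = 0.167). Iigp1, an interferon-inducible GTPase, had a log2 fold change of 1.05 (limma adjusted p = 0.189). Oas2, an antiviral synthetase, separated the groups with 3.88 to 5.44 FPKM in GSK343 and 0.946 to 2.69 FPKM in vehicle tumours (limma adjusted p = 0.0615), and Ifih1, the RNA sensor MDA5, had a log2 fold change of 0.92 (limma adjusted p = 0.189).

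The protein-coding genes whose level was most like that of each factor were found by Pearson's r over the 10 tumours, as a description. For Stat2 they were Dtx3l (r = 0.988), a ubiquitin ligase, Ifit2 (0.987) and Gbp5 (0.983). For Irf7 they were Cmpk2 (0.927), a mitochondrial nucleotide kinase, Fam220a (0.922) and Ifi44 (0.918). For Irf9 they were Slc35f6 (0.967), Rhobtb2 (0.965) and Socs1 (0.946), and for Ifng they were Pglyrp2 (0.988), Ifi205 (0.978) and Ccrl2 (0.977). For Irf1 they were Kdm1b (0.910), a histone lysine demethylase, Leng8 (0.900) and Prpf40b (0.896), and the highest r was lower than for the other 4 genes.

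**Figure D5:**
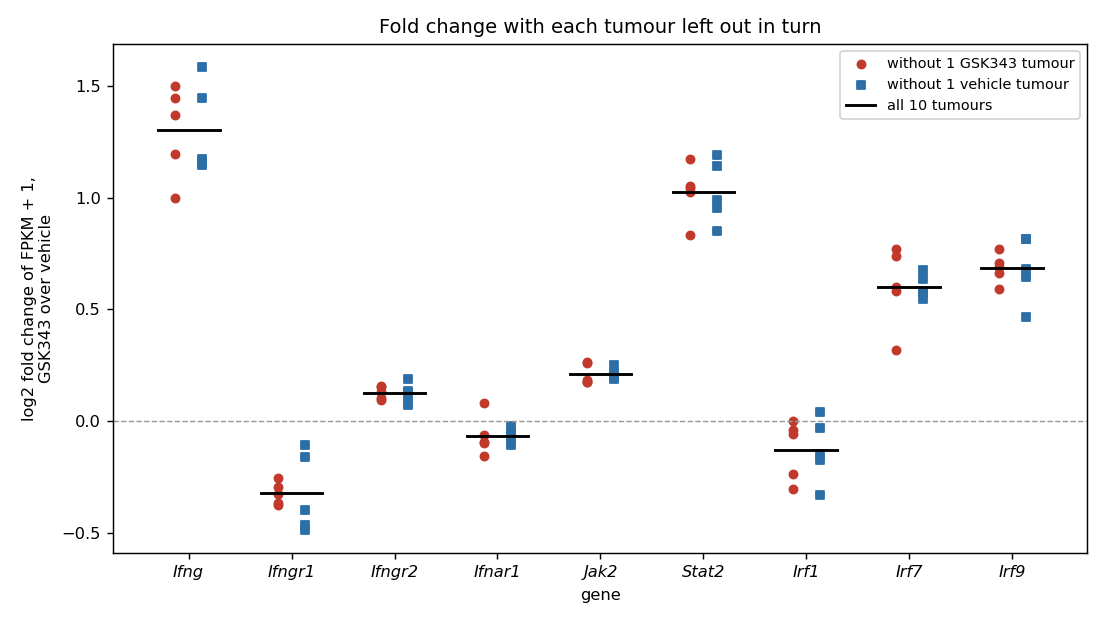
Log2 fold change of FPKM + 1, GSK343 over vehicle (vertical axis), of each gene (horizontal axis), with 1 GSK343 tumour (red circles) or 1 vehicle tumour (blue squares) left out; the black line is the value over all 10 tumours. Irf7 dropped to 0.32 without GSK343 replicate 3, Stat2 stayed between 0.83 and 1.19, and Ifnar1 and Irf1 crossed 0.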

How the data were processed

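Poly-A RNA of 10 tumours was sequenced, 5 biological replicates per group per the series' design text. The authors' deposited table has 1 value per gene and tumour. Its header names no unit, and FPKM was inferred for the deposited values because they are not whole and sum to 574547 to 623397 per tumour. Trimmomatic 0.33, HISAT2 2.1.0, StringTie 1.3.3b and mm10 are named per the submitters' processing notes. The sources used here give neither the annotation release nor the strand. The 10 unnamed columns hold no values. Column titles were matched to samples by title.

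Lines averaging 1 FPKM or more over the 10 tumours, 14496 in all, were fitted as log2(FPKM + 1) by limma 3.58.1 (R 4.3.3) with a trended prior variance. Each of the 9 genes passed that filter. A line was called at an adjusted p under 0.05 (Benjamini-Hochberg over those lines, two-sided). This scale understates the fold change of low genes. Exact permutation p values of single genes are two-sided and unadjusted. Correlations used 100000 permutations, exact ones below 10 tumours. The p-values measure the spread between tumours. Depth enters through that spread, and FPKM allow no counting interval.

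Named were the 9 genes, the 2 genes with the smallest p of each pathway or target list with at least 3 tested, any that passed, and Jak1, Tyk2 and Ifnar2. Some genes that this rule names are not reported here. Likeness took the 3 protein-coding genes with the highest r. The genes and lists were chosen with earlier results of these data known. Coordinates are those of the table, and the 9 genes stand at the same coordinates in GENCODE M21. Sequences are from RefSeq (GRCm38.p6). The fit was tested on simulated data. Alternatives covered the filter, pseudocount, scaling, variance model, tumour weights, replicate number, a leukocyte covariate, summed lines and tumours left out. Plots were drawn with matplotlib 3.10.9.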

Additional observations from a re-analysis of the deposited data

Results flagged for a closer look

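Each of 26 genes was searched for a tumour distant from the rest of its group, in 52 groups of 5, and 3 were found, where chance gives about 5%. Irf7 was 54.0 FPKM in GSK343 replicate 3, against 14.6 to 25.1 FPKM in the other GSK343 tumours. Iigp1 was 133 FPKM in vehicle replicate 3, against 66.4 to 84.9 FPKM in the other vehicle tumours. Ifih1 was 6.97 FPKM in vehicle replicate 3, against 2.32 to 3.47 FPKM in the other vehicle tumours.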

How the results depend on the processing

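No alternative brought any of the 9 genes or of the 39 other pathway genes past the adjusted threshold. Of the 36 targets, 1 passed with tumour weights, 2 without vehicle replicate 2 and 1 without vehicle replicate 3. Over all lines 17 of 14496, 98 of 14490 and 11 of 14496 passed in these refits, in that order. The log2 fold change of a gene kept its sign in 202 refits and turned in 5. Those were Ifngr1 (0.0018) and Ifngr2 (-0.065) with the pan-leukocyte covariate, Irf1 (0.079) without GSK343 replicates 3 and 5, Ifnar1 without GSK343 replicate 2 and Irf1 without vehicle replicate 2. Leaving out 1 tumour gave ranges of -0.16 to 0.079 for Ifnar1 and -0.33 to 0.038 for Irf1. The exact permutation p ranged over those fits from 0.0238 to 0.111 for Ifng, 0.444 to 0.913 for Ifnar1, 0.0397 to 0.127 for Jak2, 0.317 to 0.984 for Irf1, 0.0317 to 0.159 for Irf7 and 0.0159 to 0.0873 for Irf9. Without GSK343 replicates 3 and 5 it was 0.0714 for Stat2, 0.196 for Irf9 and 0.875 for Irf1. The cause was not tested.

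The count of 12 called lines was 6 without a filter, 3 at a mean of at least 5 FPKM, 7 with median-of-ratios scaling, 7 with quantile normalization, 2 with the covariate and 4 without GSK343 replicates 3 and 5. It ranged from 3 to 98 with 1 tumour left out, and was 98 without vehicle replicate 2. The count of 4 genes higher at an unadjusted p under 0.05 was 0 with the covariate and 1 without GSK343 replicates 3 and 5, and 2 to 5 with 1 tumour left out. Over all lines 453 of 14496 were higher by that rule with the covariate and 691 of 14360 without GSK343 replicates 3 and 5.

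Without the tumours farthest from the median, r of Ifng and Ifngr2 was 0.74 (exact permutation p = 0.0359). For the pan-leukocyte score it was then 0.70 for Ifngr2, -0.13 for Irf1 and 0.60 for Irf7, and 0.50 for Irf7 with group means subtracted. Over the 7 tumours with the most Ifng, chosen after the data were seen, r was -0.60 for Irf1 and 0.69 for Irf9.

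The replicate numbers did not pair the tumours. Deviations of same-numbered tumours correlated at -0.112, -0.332, 0.0349 and -0.194 for numbers 1, 2, 3 and 5, and 0 of these 4 GSK343 tumours correlated best with its own number. With the replicate block 2 lines were called.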

Other observations

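The Ifngr1 values of vehicle replicates 5 and 6 were followed up after they were seen. The protein-coding genes most like Ifngr1 over the 10 tumours were Znrf2 (r = 0.967), Trib1 (0.931) and Atf1 (0.928). Znrf2, a ubiquitin ligase, measured 12.7 and 12.5 FPKM in vehicle replicates 5 and 6 and 8.66 to 10.3 FPKM in the other 8 tumours, a smaller span than the 64.1 to 74.3 FPKM against 25.3 to 37.1 FPKM of Ifngr1. The 4 protein-coding genes tested within 700 kb of Ifngr1 on chromosome 10 had no such step. Tnfaip3, the ubiquitin-editing enzyme A20, measured 5.62 and 5.09 FPKM in vehicle replicates 5 and 6, the lowest values of the 10 tumours. Map3k5, an upstream kinase of stress signalling, measured 5.203 and 4.91 FPKM there and 3.26 to 5.39 FPKM in the others.

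Socs1, the feedback inhibitor of JAK kinases and among the genes most like Irf9, measured 12.5, 8.12, 20.1, 16.8 and 16.2 FPKM in GSK343 replicates 1 to 5. In vehicle replicates 1, 2, 3, 5 and 6 it measured 5.05, 15.6, 9.38, 0.0349 and 5.90 FPKM (log2 fold change 1.35, limma adjusted p = 0.294). The value near 0 fell in vehicle replicate 5, which also had the lowest Irf9. Both the fold change of Socs1 and its likeness to Irf9 therefore lean on this tumour. Usp18, the feedback inhibitor of the type I receptor, measured 46.2 to 51.0 FPKM in GSK343 and 42.9 to 61.4 FPKM in vehicle tumours (log2 fold change -0.01, limma adjusted p = 0.978).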
